A study of Rattus norvegicus with 22 samples.

Results

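Expression of 7 genes for subunits of the GABA-A receptor was measured in the nucleus accumbens (NAc) of rats that drank ethanol (EtOH) or received it by gavage. They were Gabra2, Gabra4, Gabra5, Gabrb1, Gabrb2, Gabrg1 and Gabrd, found by exact gene symbol in the deposited count tables, and all 7 were present among the 17310 symbols listed. All 22 rats were male Wistar rats of an outbred stock, housed singly, and each library came from the NAc, core and shell, of a separate rat. In experiment 1, 5 rats with only water were compared with 5 rats that had continuous access to 6% (v/v) EtOH beside water for 8 weeks. In experiment 2, all 12 rats drank 6% EtOH beside water over 4 weeks, were then gavaged over 3 weeks, and had EtOH bottles in the last 2 weeks. Whether the bottles stayed in place during the weeks of gavage is not plainly stated. The gavage held EtOH for 6 rats (2.5 g/kg at 30% v/v, given 2 times daily) and water for the other 6, for which the number of doses a day was not stated. Both groups of experiment 2 therefore drank EtOH, and that experiment had no group that had only water. The libraries were unstranded in experiment 1 and strand-specific in experiment 2.

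GABA-A receptors are the chloride channels through which GABA, the main inhibitory transmitter of the brain, quickly lowers the excitability of neurons. Each channel is a ring of subunits, most often alpha and beta subunits with a gamma or a delta subunit, and the alpha subunit sets much of where the receptor sits and which drugs it binds. Receptors with a gamma subunit are found mainly at synapses, whereas receptors that pair alpha4 with delta lie outside them and carry a steady, tonic current. Most neurons of the NAc are GABA-releasing projection neurons, which are themselves held in check by these receptors, and GABA-A receptors have long been studied as targets of EtOH.

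The libraries held 2962291 to 5247386 reads on genes in experiment 1 and 6713617 to 8765472 in experiment 2. All 12 striatal projection neuron markers, among them Drd1, Drd2 and Penk, had reads in every library, with summed levels of 3239 to 9537 CPM (counts scaled to a common library total). The interneuron marker Npy was listed at 0 in every library, while the other 7 interneuron markers had reads in every library. Whether the 0 of Npy comes from the tissue or from the counting was not tested. Markers of cortical glutamatergic neurons summed to 235 to 830 CPM in experiment 1 and to 21.9 to 592 CPM in experiment 2. Of the reads aligned uniquely, the share that the counting assigned to no annotated gene, called here the off-gene share, was 48.4% to 51.1% in experiment 1 and 46.1% to 58.0% in experiment 2. The strand setting of the counting is not given. If it was strand-specific, reads on the opposite strand of a gene would also be in this share. In experiment 2 the 3 highest shares were 58.0% and 56.4% (EtOH gavage, replicates 1 and 2) and 54.5% (water gavage, replicate 1). The first principal component of experiment 2 held 74.0% of the variance of the genes tested and had a correlation of 0.975 with this share in size, against 26.0% and 0.464 in experiment 1.

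Every subunit gene was measured well above the low-count range and passed the filter in both experiments, with 89 to 4432 reads in a rat. Levels are given as CPM, which are not corrected for transcript length, so that they compare rats for a gene and not genes with each other. The plot of levels by rat shows that treated and control values overlapped for all 7 genes in both experiments. Groups that did not overlap were found for 0.843% of all genes tested in experiment 1 and for 0.0116% in experiment 2.

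**Figure D1:**
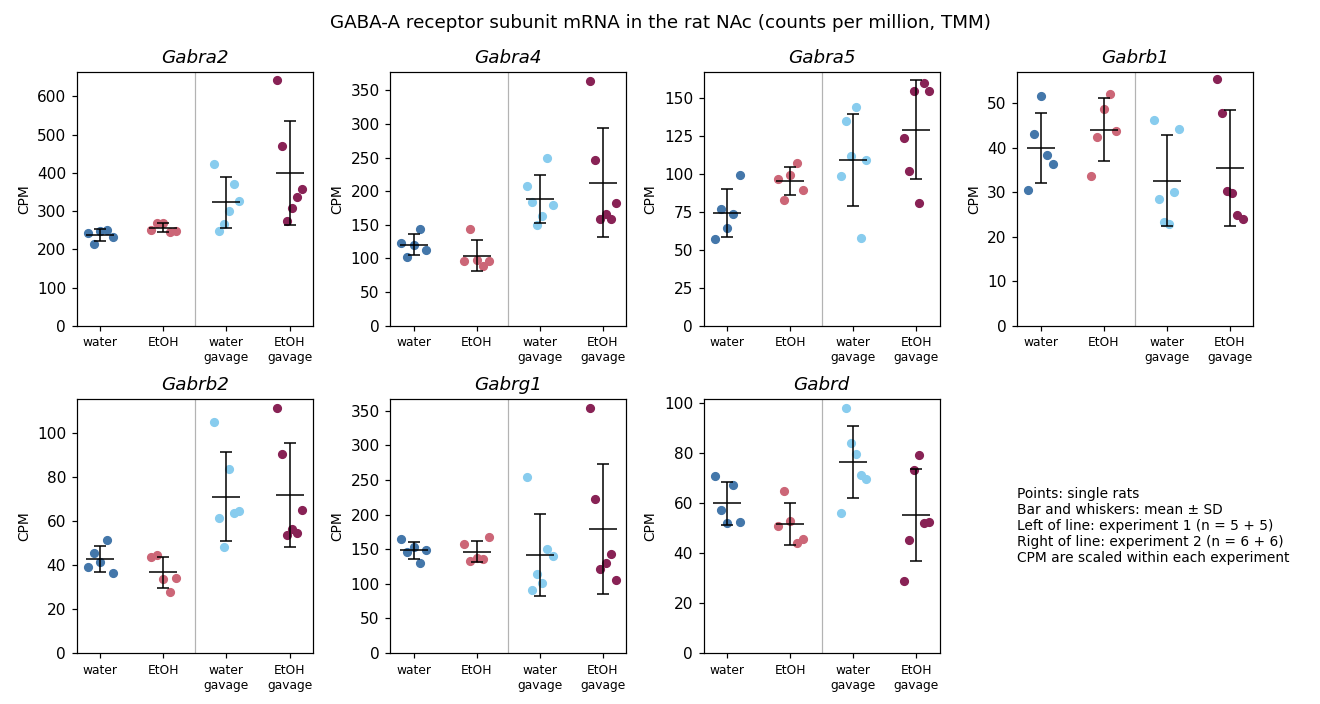
Level of each subunit gene in each of the 22 rats in CPM (vertical axis, linear), by group, with the group mean and SD. The control and treated points overlap in every panel, and in experiment 2 single rats of Gabra2, Gabra4 and Gabrg1 reach 642.4, 363.2 and 353.4 CPM.

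No subunit gene passed the test in experiment 1, the comparison of voluntary EtOH drinking with water. Gabra5 was nearest, 1.28-fold higher in EtOH rats, followed by Gabra2 at 1.08-fold, while Gabrd, Gabra4 and Gabrb2 were lower by fitted log2 values of -0.20, -0.20 and -0.22. In edgeR's quasi-likelihood test, 3 of the 7 genes were higher and 4 lower, with adjusted p-values of 0.861 to 0.992 (Benjamini-Hochberg over the 8655 genes tested). The median of their log2 fold changes was -0.03, beside -0.0012 over all genes tested, of which 49.5% were higher. At an adjusted p under 0.05, 0 of the 7 and 0 of the 8655 genes (0%) were called. At an unadjusted p under 0.05, 1 of the 7 was called, against 483 genes or 5.58% of all.

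Gabra5 encodes alpha5, an alpha subunit best known from the hippocampus, where its receptors lie largely outside synapses. In the water group of experiment 1 it was at 57.4, 76.7, 64.4, 73.4 and 99.1 CPM, and in the EtOH group at 96.7, 83.1, 99.5, 107.1 and 89.6 CPM. All 5 EtOH rats were above the median of the water group, but water replicate 5 lay among them, so the groups overlapped. The means were 74.2 ± 15.9 (SD, n = 5) and 95.2 ± 9.25 CPM, a log2 fold change of 0.35 with a 95% interval of 0.09 to 0.61. The edgeR p was 0.0120 before and 0.861 after adjustment, and 118 genes had a smaller p. A two-sided exact permutation test on log2 CPM gave an unadjusted p = 0.0397, where the smallest p that 5 against 5 rats allow is 0.00794. Leaving out a rat at a time kept the log2 fold change between 0.28 and 0.49, with adjusted p-values of 0.103, without water replicate 5, to 0.993. With the first principal component as a covariate the value was 0.14.

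No marker gene of the 10 cell type lists passed the test in experiment 1 at an adjusted p under 0.05, but some marker levels differed between the groups beside Gabra5. The summed levels of 8 lists overlapped between the groups and those of 2 did not, where the groups of 0.843% of single genes did not overlap. The neuroblast list (5 of 5 genes above 0) was at 208 to 278 CPM in water rats and 280.4 to 391 CPM in EtOH rats, and the list for oligodendrocyte precursors (3 of 3 above 0) at 221 to 256 and 264 to 302 CPM. The interneuron list (7 of 8 above 0, Npy at 0) was at 335 to 531 CPM in water rats and 347 to 400.1 CPM in EtOH rats, and the vascular list (6 of 6 above 0) at 262 to 310 and 286 to 364 CPM. An unadjusted p under 0.05 was found for 3 of 3 neuroblast, 4 of 6 interneuron, 3 of 5 vascular, 1 of 3 precursor, 1 of 12 projection neuron, 1 of 7 glutamatergic and 1 of 1 ependymal genes tested, and for none of the astrocyte, oligodendrocyte and microglia genes, beside 5.58% of all genes. Some of these markers are among the top genes that the paper lists for the same rats. They are Dcx, Dlx1 and Cd24 (neuroblast), Pdgfra (precursor) and Cux2 (glutamatergic). The counts and group gaps of these lists are therefore not independent of the data, and the shares of all genes are no fair measure for them. Over the 10 rats Gabra5 had its largest r in size with the sums of the interneuron (-0.808), neuroblast (0.805), ependymal (0.734) and precursor (0.705) lists, given as descriptions with no test. Group means were not subtracted, so these r also hold the difference between the groups. The ependymal sum was at only 6.53 to 28.2 CPM. In experiment 2 the r of Gabra5 with the same lists, in this order, was -0.343, 0.042, -0.297 and 0.176. In experiment 1 the correlations of Gabra5 with the summed projection neuron and glutamatergic markers, the only lists tested, were -0.712 and 0.653 (permutation p = 0.0238 and 0.0403, adjusted p = 0.250 and 0.416). Spearman's rho was -0.697 and 0.685 (permutation p = 0.0308 and 0.0349). The part of these lists in the value of Gabra5 was not tested, and in tissue libraries fewer cells of a type and less RNA per cell cannot be told apart.

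Gabra2, which encodes the alpha2 subunit of many forebrain synaptic receptors, varied least between rats in experiment 1. It was at 242.5, 213.2, 247.9, 250.5 and 232.4 CPM in water rats and at 249.2, 269.8, 268.2, 245.1 and 248.3 CPM in EtOH rats. All 5 EtOH values were above the water median, and 2 of them were above every water rat. The means were 237 ± 15.1 and 256 ± 11.9 CPM (SD, n = 5 each), a log2 fold change of 0.11 (95% interval -0.02 to 0.24, edgeR adjusted p = 0.875, unadjusted two-sided exact permutation p = 0.0635). With the first principal component as a covariate the value was 0.13.

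Gabra4 and Gabrd encode alpha4 and delta, the partners in tonic receptors. Gabra4 was at 123.6, 102.4, 120.6, 143.6 and 112.8 CPM in water rats and at 96.3, 144.0, 97.2, 88.5 and 96.0 CPM in EtOH rats. Of the EtOH rats, 4 were below every water rat and replicate 2 was above them all. The log2 fold change was -0.20 (95% interval -0.47 to 0.06, edgeR adjusted p = 0.899), -0.35 without EtOH replicate 2, -0.13 without water replicate 4 and -0.08 with the first principal component as a covariate. Gabrd was at 70.8, 57.2, 51.9, 67.5 and 52.7 CPM in water rats and at 51.1, 64.9, 52.8, 44.1 and 45.5 CPM in EtOH rats, again with replicate 2 the highest of the EtOH group and 3 rats below every water rat. Its log2 fold change was -0.20 (95% interval -0.46 to 0.05, edgeR adjusted p = 0.898), -0.30 without EtOH replicate 2 and -0.03 with the first principal component as a covariate.

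The 2 beta subunit genes and Gabrg1, for a gamma subunit that takes the place of the more common gamma2 in a minority of receptors, had groups that overlapped and intervals that spanned 0. Gabrb1 was at 40.0 ± 7.87 CPM in water and 44.1 ± 6.98 in EtOH rats (SD, n = 5 each), and Gabrb2 at 42.6 ± 5.84 and 36.6 ± 7.16 CPM. Gabrg1 was at 149 ± 12.4 and 146 ± 15.2 CPM, and the sign of its log2 fold change of -0.03 turned when water replicate 1 (0.0074) or EtOH replicate 2 (0.00067) was left out. The 95% intervals ran from -0.16 to 0.43 for Gabrb1, from -0.51 to 0.07 for Gabrb2 and from -0.20 to 0.15 for Gabrg1. With the first principal component as a covariate the log2 fold change of Gabrb1 went from 0.13 to 0.01 and that of Gabrb2 from -0.22 to -0.10. Leaving out a rat moved Gabrb1 between 0.06 (without water replicate 1) and 0.25 (without water replicate 3), and Gabrb2 between -0.30 (without EtOH replicate 2) and -0.13 (without EtOH replicate 4).

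No subunit gene passed the test in experiment 2 either, the comparison of EtOH gavage with water gavage in rats that also drank EtOH. Gabrd was nearest, at 0.722 of the water gavage level, and was the only one of the 7 with a fitted value below 0. The other 6 were higher by 0.02 (Gabrb2) to 0.34 (Gabrg1) on the log2 scale. The edgeR quasi-likelihood test gave adjusted p-values of 0.675 to 0.974 for the 7 genes. Their median log2 fold change was 0.17, beside 0.00088 over the 8655 genes tested, of which 50.1% were higher. At an adjusted p under 0.05, 0 of the 7 and 0 of all genes (0%) were called, and at an unadjusted p under 0.05, 0 of the 7 against 115 genes or 1.33% of all. The median biological coefficient of variation was 29.5% in this experiment and 10.8% in experiment 1, so that the 95% intervals of the 7 genes were 0.89 to 1.39 log2 units wide here and 0.26 to 0.60 there.

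**Figure D2:**
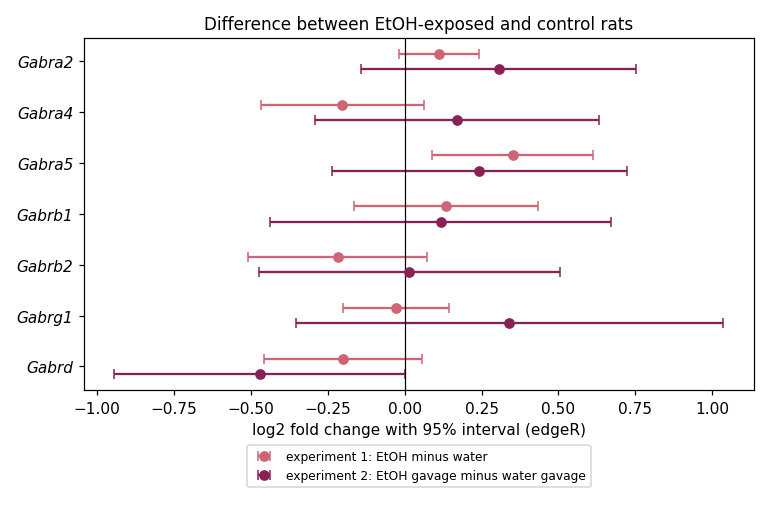
Fitted log2 fold change of each subunit gene, treated over control (horizontal axis), in experiments 1 and 2, with bars for the 95% interval of edgeR's fit. The interval of Gabra5 in experiment 1 (0.09 to 0.61) lies above 0 before adjustment, that of Gabrd in experiment 2 ends at 0.0024, and the other 12 span 0.

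The delta gene Gabrd had a lowest, median and highest level of 56.2, 75.5 and 98.2 CPM in the water gavage group and of 28.8, 52.3 and 79.2 CPM in the EtOH gavage group. Of the 6 EtOH gavage rats, 4 were below every water gavage rat and the remaining 2 lay within that group. The means were 76.5 ± 14.3 and 55.2 ± 18.5 CPM (SD, n = 6 each), a log2 fold change of -0.47 with a 95% interval of -0.94 to 0.0024. The edgeR p was 0.0510 before and 0.675 after adjustment, and a two-sided exact permutation test gave an unadjusted p = 0.0455 (the smallest that 6 against 6 rats allow is 0.00216). The 2 lowest levels, 28.8 and 45.4 CPM, were in the 2 rats with the highest off-gene shares, EtOH gavage replicates 1 and 2. With that share as a covariate the log2 fold change was -0.20, and with the first principal component it was -0.25. Without the 3 rats with the highest shares it was -0.32, a setting chosen after the data were seen. The unadjusted p, by edgeR or DESeq2, was under 0.05 in 6 of 10 alternative settings and in 3 of 12 fits that left out a rat. The adjusted p was at least 0.394 in all of these.

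Gabra2 had a lowest, median and highest level of 247.9, 313.2 and 423.4 CPM in the water gavage group and of 274.8, 348.0 and 642.4 CPM in the EtOH gavage group. EtOH gavage replicates 1 and 2 were the 2 above every water gavage rat, and the other 4 lay within that group. The log2 fold change was 0.31 (95% interval -0.14 to 0.75, edgeR adjusted p = 0.675), 0.12 without EtOH gavage replicate 1 and -0.02 with the off-gene share as a covariate.

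Gabrg1 had a lowest, median and highest level of 90.9, 126.9 and 254.0 CPM in the water gavage group and of 106.0, 136.8 and 353.4 CPM in the EtOH gavage group, the widest spread among the 7 genes at 42.0% and 52.6% of the means. The highest rat of each group was its replicate 1. The log2 fold change of 0.34 (95% interval -0.35 to 1.03, edgeR adjusted p = 0.675) was 0.03 without EtOH gavage replicate 1, 0.59 without water gavage replicate 1 and -0.17 with the covariate.

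Gabra4 was at 189 ± 35.7 CPM in water gavage rats and 212 ± 80.9 in EtOH gavage rats (SD, n = 6 each), Gabrb1 at 32.6 ± 10.2 and 35.4 ± 13.03, and Gabrb2 at 71.0 ± 20.1 and 71.8 ± 23.7. EtOH gavage replicate 1 had the highest level of all 12 rats for each of these 3 genes. Without that rat the log2 fold changes turned from 0.17 to -0.05 for Gabra4, from 0.12 to -0.05 for Gabrb1 and from 0.02 to -0.15 for Gabrb2, and with the covariate they were -0.16, -0.25 and -0.30.

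Gabra5 was at 109 ± 30.5 CPM in water gavage rats and 129 ± 32.7 in EtOH gavage rats, with 3 of the 6 EtOH gavage rats above every water gavage rat. The log2 fold change was 0.24 (95% interval -0.24 to 0.72, edgeR adjusted p = 0.675), 0.42 with the covariate and 0.11 without water gavage replicate 5, the lowest rat at 57.5 CPM.

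The fold changes of the 2 experiments were compared by an interaction term over the 8176 genes tested in both. The difference, experiment 2 minus experiment 1, was largest in size for Gabra4 at 0.38 log2 units (95% interval -0.19 to 0.94) and Gabrg1 at 0.37 (-0.41 to 1.15). For Gabra5 it was -0.11 (-0.71 to 0.48) and for Gabrd -0.25 (-0.84 to 0.34). Adjusted p-values for the 7 genes were 0.813 to 0.981, and none of them or of all genes was called (0%). At an unadjusted p under 0.05, 0 of the 7 were called, against 154 genes or 1.88%. Since the controls and the library types of the experiments differ, the 2 comparisons are unlike in more than the EtOH given.

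In experiment 2 most subunit genes varied between rats with the off-gene share. The correlation of log2 CPM over the 12 rats was positive for Gabra2, Gabra4, Gabrb1, Gabrb2 and Gabrg1 and negative for Gabrd, and passed an adjusted permutation p of 0.05 in these 6 of 7 genes, as it did in 69.8% of all genes tested. It was r = 0.935 for Gabra2 (permutation p = 1e-05, the smallest that 100000 resamples give, adjusted p = 6.85e-05 over the 8655 genes) with a Spearman's rho of 0.895 (permutation p = 0.00028). For Gabrg1 it was r = 0.920 (permutation p = 5.0e-05, adjusted p = 0.000209; rho 0.846, permutation p = 0.00095) and for Gabrd r = -0.871 (permutation p = 0.00017, adjusted p = 0.000525; rho -0.839, permutation p = 0.00126). The sign of each of these held within both groups, at 0.989 and 0.908 for Gabra2, 0.937 and 0.919 for Gabrg1 and -0.951 and -0.837 for Gabrd (water gavage and EtOH gavage). Without the 2 rats farthest from the median share, r was 0.854, 0.826 and -0.692.

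**Figure D3:**
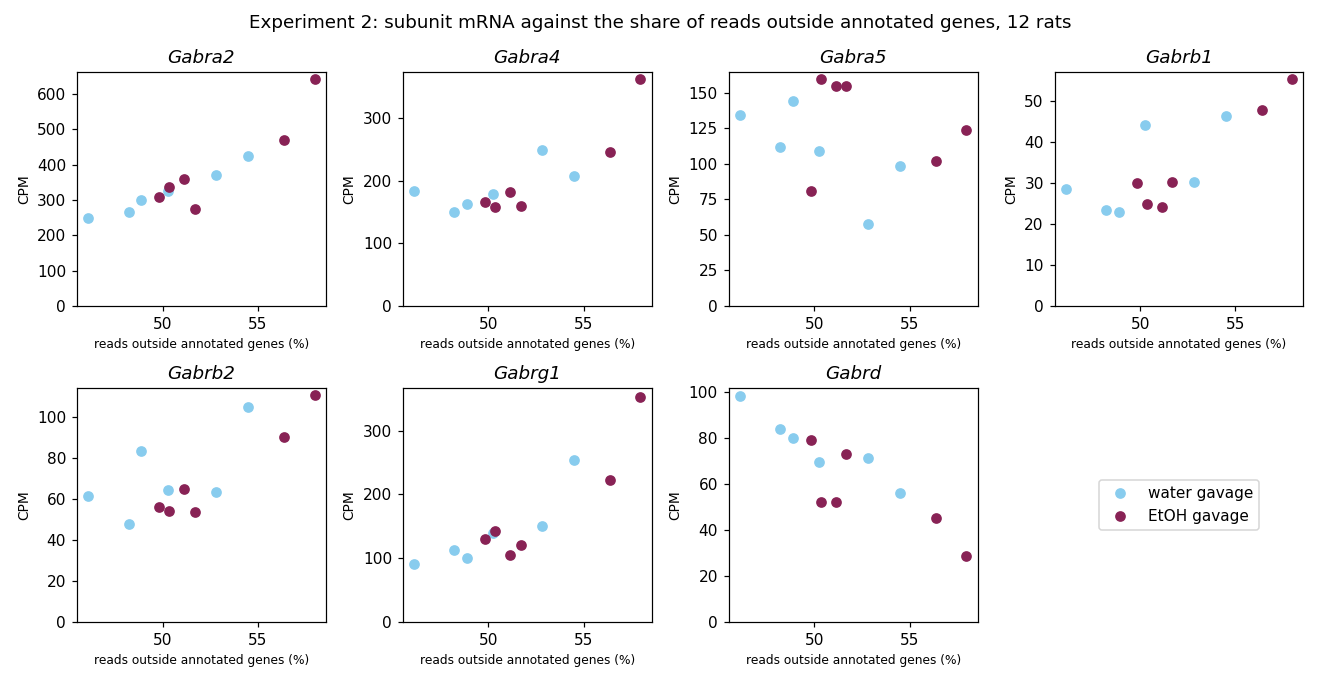
Level of each subunit gene in CPM (vertical axis) against the percent of uniquely aligned reads assigned to no annotated gene (horizontal axis) in the 12 rats of experiment 2, by group. Gabra2 and Gabrg1 climb with the share (r on the log2 scale 0.935 and 0.920), Gabrd descends (r = -0.871), and Gabra5 shows neither (r = -0.228).

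The relation was looser for Gabra4 (r = 0.815, rho 0.650, permutation p = 0.00134, adjusted p = 0.00286), Gabrb1 (r = 0.777, rho 0.776, permutation p = 0.00338, adjusted p = 0.00636) and Gabrb2 (r = 0.727, rho 0.601, permutation p = 0.00762, adjusted p = 0.0130). The permutation p of rho was 0.0260, 0.00417 and 0.0428, and that of Gabrb2 missed the threshold after adjustment (0.0652). Within the water gavage and EtOH gavage groups r was 0.670 and 0.948 for Gabra4, 0.632 and 0.947 for Gabrb1 and 0.60 and 0.959 for Gabrb2. Without the 2 farthest rats r was 0.532, 0.521 and 0.462, so that these relations rest in part on those rats. For Gabra5 r was -0.228 (permutation p = 0.475, adjusted p = 0.524; rho -0.210, permutation p = 0.515). In experiment 1, where the share spanned a narrow range, r lay between -0.403 and 0.375 and 0 of 7 genes passed, as did 0% of all genes (lowest adjusted permutation p 0.757). In all, 42 relations were tested for the 7 genes, with 3 measures in each experiment, and the part of the share in the levels was not tested beyond the covariate values given above.

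The relation of the 7 genes with marker levels was tested for cortical glutamatergic neurons, a list picked for this comparison after marker levels had been seen. In experiment 2 the r of Gabra5 with their summed log2 level was 0.773 (permutation p = 0.00253, adjusted p = 0.0280; rho 0.748, permutation p = 0.00704), 0.911 within the water gavage and 0.668 within the EtOH gavage group, and 0.796 without the 2 farthest rats. Gabra2, Gabra4 and Gabrg1 had correlations of the other sign (r = -0.729, -0.771 and -0.782, permutation p = 0.00582, 0.00248 and 0.00287, adjusted p = 0.0337, 0.0278 and 0.0286). Their rho was -0.755, -0.643 and -0.874 (permutation p = 0.00596, 0.0272 and 0.00044), and by rho only Gabrg1 kept an adjusted p under the threshold (0.0249, Gabra5 0.0717). These 4 of 7 genes stood beside 35.3% of all genes, and the marker sum itself had an r of -0.745 with the off-gene share. With the same list in experiment 1, 0 of 7 genes passed, beside 0.254% of all genes. Other lists, for which r was computed with no test, came as close or closer in experiment 2. The microglia sum had r = -0.869 with Gabra2, -0.882 with Gabrg1, 0.810 with Gabrd and -0.905 with the off-gene share, against 0.058 with Gabra5. The neuroblast sum had r = 0.733, 0.790 and -0.769 with Gabra2, Gabrg1 and Gabrd and 0.848 with the off-gene share.

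With the summed markers of striatal projection neurons, a list picked in the same way, 0 of 7 genes passed in either experiment, beside 0.878% of all genes in experiment 1 and 0% in experiment 2. The largest in size were Gabrd (r = 0.838, permutation p = 0.00369, adjusted p = 0.118; rho 0.673, permutation p = 0.0394) and Gabra4 (r = 0.808, permutation p = 0.00686, adjusted p = 0.150, with rho 0.782, permutation p = 0.0104) in experiment 1. In experiment 2 it was Gabra5 (r = -0.783, permutation p = 0.00382, adjusted p = 0.389, with rho -0.678, permutation p = 0.0187), at -0.448 without the 2 farthest rats.

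The 21 pairs of subunit genes had a median correlation of 0.077 in experiment 2 (11 positive, 10 negative) and of -0.284 in experiment 1 (7 positive, 14 negative), after group means were subtracted. In experiment 2 they fell into a block, picked here for its shared sign, and the rest. The 10 pairs among Gabra2, Gabra4, Gabrb1, Gabrb2 and Gabrg1 had correlations of 0.717 to 0.917 over the 12 rats, and Gabrd had -0.946 to -0.682 with these 5. The 6 pairs with Gabra5 were at -0.415 to 0.077 in experiment 2 and at -0.551 to 0.135 in experiment 1. In experiment 1, 3 of the same 10 pairs were positive and 7 negative (-0.389 to 0.739, 10 rats). Gabra4 and Gabrd, the tonic receptor partners, had a correlation of 0.783 in experiment 1, between 0.592 (without EtOH replicate 2) and 0.847 when a rat was left out, and of -0.798 in experiment 2, where it was -0.562 without EtOH gavage replicate 1. When the off-gene share was removed as well, the 10 pairs of experiment 2 were at 0.08 to 0.59. Gabrd then had -0.809 to 0.0041 with the 5 genes, and -0.317 with Gabra4. The points of such a correlation share their libraries and depth, and the values are descriptions with no test. Of the 7 genes, 4 are close neighbours on chromosome 14 in the rat assembly GRCr8, in the order Gabrb1, Gabra4, Gabra2 and Gabrg1 with Cox7b2 between Gabra4 and Gabra2. Their 6 pairs ranged from -0.389 to 0.739 in experiment 1 and from 0.738 to 0.917 in experiment 2.

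**Figure D4:**
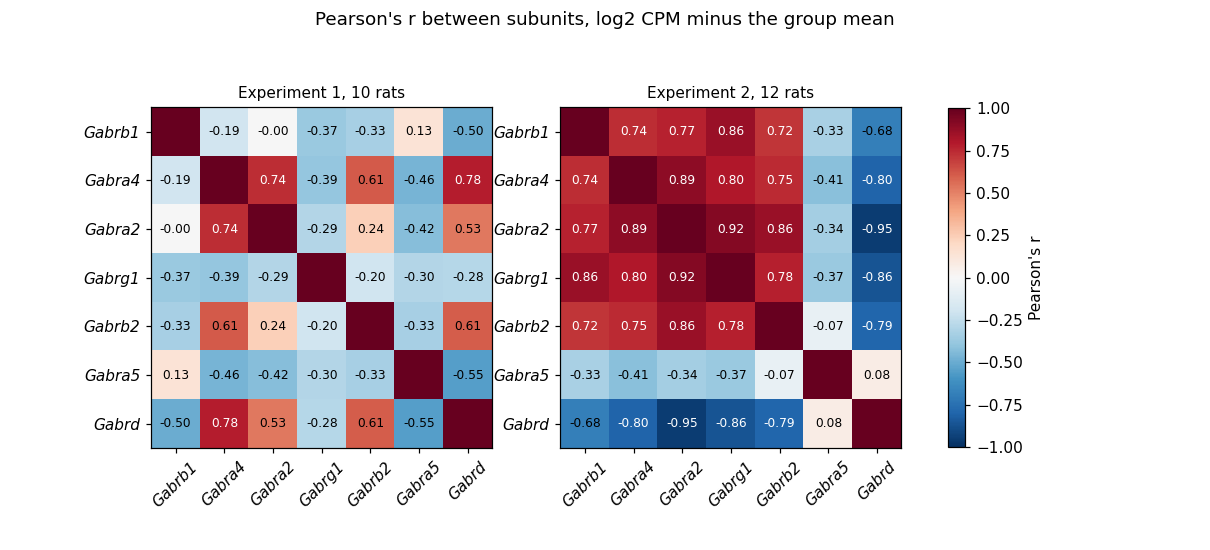
Pearson correlation between the levels (log2 CPM, group means subtracted) of each pair of subunit genes in experiment 1 (10 rats) and experiment 2 (12 rats), coloured from -1 to 1. In experiment 2 a block of 5 genes has only positive values, 0.717 to 0.917, and Gabrd has -0.946 to -0.682 with each of them.

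The genes most like each subunit gene were ranked by the lower of their correlations in the 2 experiments, over the 8176 genes tested in both, after group means were subtracted. The values are the highest of many over 10 and 12 rats, and are descriptions with no test. In experiment 2, 69.8% of all genes tested followed the off-gene share, so high correlations between genes are common there. Gabra4 had the closest, Neto1, an auxiliary subunit of kainate receptors, with r = 0.978 in experiment 1 and 0.988 in experiment 2, followed by Actr2 (0.945 and 0.984) and the kinase gene Camk1d (0.943 and 0.928). For Gabrd these were Smpd3, a neutral sphingomyelinase (0.945 and 0.933), Stk32c (0.893 and 0.932) and Ecsit (0.893 and 0.912). For Gabra5 they were Tmem178a (0.865 and 0.915), Stmn2, a microtubule regulator of growing axons (0.833 and 0.893), and Stxbp5 (0.834 and 0.831). Gabra2 was followed most closely by Dlat, Rhoa and Vps29 (lower r 0.884 to 0.895) and Gabrg1 by Haus3, Plekha1 and Eif5 (0.857 to 0.875). Gabrb1 was followed by Zfp667, Hipk1 and Ap5m1 (0.797 to 0.818), and Gabrb2 by Fam49b, Cnot4 and the subunit gene Gabrg3 (0.835 to 0.846).

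The promoters of the genes nearest to the threshold and of Gabrg1, the most variable gene in experiment 2, show how they differ in base composition. RefSeq windows of GRCr8 from 250 bases before to 50 bases after the start were found for 6 of the 7 genes, Gabra2 having no entry. They are printed 5′ to 3′ on the strand of the gene, with capitals for GC boxes (GGGCGG) and CCAAT boxes (CCAAT) on either strand, and with overlapping boxes run together.

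Gabrd, chr5:171252660-171252959, minus strand: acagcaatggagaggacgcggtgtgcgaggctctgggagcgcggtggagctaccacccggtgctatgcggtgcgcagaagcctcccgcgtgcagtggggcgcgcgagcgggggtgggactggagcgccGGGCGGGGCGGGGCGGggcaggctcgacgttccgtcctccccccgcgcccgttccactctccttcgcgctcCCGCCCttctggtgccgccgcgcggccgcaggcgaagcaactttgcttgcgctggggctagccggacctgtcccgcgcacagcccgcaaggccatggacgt

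Gabra5, chr1:117516557-117516856, minus strand: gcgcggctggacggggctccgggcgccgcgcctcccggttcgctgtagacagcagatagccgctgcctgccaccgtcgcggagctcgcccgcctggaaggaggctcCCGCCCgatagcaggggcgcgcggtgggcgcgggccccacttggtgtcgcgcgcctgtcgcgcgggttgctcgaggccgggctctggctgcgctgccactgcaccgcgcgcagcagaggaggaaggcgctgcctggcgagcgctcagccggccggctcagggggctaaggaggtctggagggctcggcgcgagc

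Gabrg1, chr14:37750042-37750341, plus strand: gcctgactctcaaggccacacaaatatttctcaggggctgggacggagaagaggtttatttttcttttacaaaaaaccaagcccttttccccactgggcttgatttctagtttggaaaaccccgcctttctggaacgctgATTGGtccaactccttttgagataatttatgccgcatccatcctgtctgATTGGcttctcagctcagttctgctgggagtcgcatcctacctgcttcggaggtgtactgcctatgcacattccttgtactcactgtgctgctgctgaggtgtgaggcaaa

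The windows of Gabrd and Gabra5 were 73.7% and 76.3% G and C, above 95.7% and 97.6% of the 33469 promoters of the table, and that of Gabra4 70.7%. Those of Gabrg1, Gabrb1 and Gabrb2 were 48.7%, 49.3% and 44.0%, beside a median of 51.7% over all promoters. The GC box occurred 4 times for Gabrd and 1 time each for Gabra5 and Gabra4, and was in 33.1% of all promoters. The CCAAT box occurred 2 times for Gabrg1 and 1 time for Gabrb1, and was in 37.5% of all. None of the 6 windows held TATAAA (14.2% of all promoters), the cyclic AMP response element TGACGTCA (1.83%) or the Egr site GCGGGGGCG (2.73%), with both strands searched. Such matches describe letters and not bound sites.

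Beyond the 7 genes, a list of 47 other genes of GABA signalling was examined, chosen like the 7 with earlier results of these data known. Of these, 46 were in the files and 37 were tested in each experiment, and 0 passed an adjusted p of 0.05 in either direction in either experiment (0% of all genes). In experiment 1, 13 were higher and 24 lower, with a median log2 fold change of -0.03 and 0 of 37 at an unadjusted p under 0.05, beside 5.58% of all genes. In experiment 2, 22 were higher and 15 lower, with a median of 0.07 and 1 of 37 at an unadjusted p under 0.05, beside 1.33% of all genes.

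That gene was Plcl2, for an inositol phosphate binding protein of receptor traffic, at 162 ± 17.4 CPM in water gavage and 190 ± 18.8 in EtOH gavage rats (SD, n = 6 each). Its log2 fold change was 0.23 (SE 0.10, edgeR adjusted p = 0.675). Of the other receptor subunits, 5 of 12 were tested. All 5 were higher in experiment 2, as were 50.1% of all genes, and 2 of 5 in experiment 1.

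For the enzymes that make GABA, Gad1 differed by -0.05 (SE 0.09) and 0.05 (SE 0.15) in experiments 1 and 2, and Gad2 by -0.03 (SE 0.11) and 0.20 (SE 0.24). Slc32a1, which loads GABA into vesicles, was at 286 ± 38.9 and 254 ± 30.5 CPM in water and EtOH rats of experiment 1, and at 53.8 ± 34.5 and 32.2 ± 22.8 CPM in the gavage groups (log2 fold change -0.17, SE 0.10, and -0.74, SE 0.47). The GABA-B receptor genes Gabbr1 and Gabbr2 differed by -0.03 (SE 0.05) and 0.05 (SE 0.13) in experiment 1 and by -0.19 (SE 0.13) and -0.17 (SE 0.38) in experiment 2.

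Of genes for receptor clustering and traffic, Gabarapl1 differed by -0.05 (SE 0.05) and 0.08 (SE 0.10), and Trak2 by -0.10 (SE 0.10) and -0.09 (SE 0.17). Of the chloride carriers, the exporter gene Slc12a5 differed by -0.08 (SE 0.06) and -0.39 (SE 0.23) and the importer gene Slc12a2 by 0.01 (SE 0.10) and 0.12 (SE 0.20). All of these log2 fold changes missed the threshold in edgeR's quasi-likelihood test, with adjusted p-values of at least 0.675.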

How the data were processed

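RNA from the NAc of 22 rats was sequenced, 10 in experiment 1 and 12 in experiment 2. The authors aligned the reads to the rat genome rn6 with TopHat2 (2.0.13 per the labels), counted reads per gene with htseq-count, and deposited these raw counts for each sample without normalization. The counting options and annotation release are not given in the sources used here. Reads aligned at several sites, and reads that could not be assigned to a single gene, were left out by htseq-count. Near-identical or overlapping genes may therefore be undercounted. Samples were grouped by their titles, and replicates are separate rats.

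The 5 summary lines at the end of each file were left out of library sizes and tests, and the off-gene share (uniquely aligned reads assigned to no annotated gene) was taken from them. In each experiment, the 8655 of 17310 genes with the higher DESeq2 base mean (above the median) were tested with edgeR 4.0.16 (TMM factors, quasi-likelihood test, Benjamini-Hochberg adjustment, R 4.3.3). Intervals are 95% intervals from the standard error and degrees of freedom of the fit. Each of the 7 genes was also tested in each experiment by two-sided exact permutation of log2 CPM (prior count 2), with p-values not adjusted for the number of these tests. Correlations were tested by 100000 permutations adjusted over all genes tested. The scripts were tested on simulated data. The lowest chi-square per degree of freedom between 2 rats of a group was 2.74, so no library was counted as a repeat of another. The 7 genes, the pathway and marker lists and the tests were chosen with earlier results of these data known. Named genes were the 7 members, pathway genes with an unadjusted p under 0.05 or the 2 highest of each sublist in experiment 1, and the 3 genes most like each member, and some pathway genes that this rule names are not reported here. Alternatives were other scaling, filters and tools (DESeq2 1.42.0), covariates, a replicate block and leaving out each rat. Coordinates and promoters come from RefSeq (GRCr8), a later build than that of the counts, and no rn6 annotation was used. Read depth limits precision. Intervals of single genes give the uncertainty of the fitted difference between groups, which depends on the spread between rats, and not that spread itself.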

Additional observations from a re-analysis of the deposited data

Results flagged for a closer look

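In a scan of 32 groups of values for a rat far from the others, 2 were found, where chance gives about 1 in 20, or 1.6. Gabra4 in the EtOH group of experiment 1 was at 144.0 CPM in replicate 2 and at 88.5 to 97.2 CPM in the other 4 rats, a gap equal to 0.843 times the range. Without that rat the log2 fold change of Gabra4 was -0.35 rather than -0.20 (edgeR adjusted p = 0.447, and 0.447 to 0.993 over all rats left out in turn). Gabrg1 in the water gavage group of experiment 2 was at 254.0 CPM in replicate 1 and at 90.9 to 150.3 CPM in the other 5 rats, a gap equal to 0.636 times the range. Without that rat its log2 fold change was 0.59 rather than 0.34 (edgeR adjusted p = 0.394, and 0.394 to 0.998 over all rats left out in turn). The same rat had an off-gene share of 54.5%, the highest of its group.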

How the results depend on the processing

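At an adjusted p under 0.05, 0 genes and 0 of the 7 subunit genes were called in each experiment, by edgeR and DESeq2 and under every alternative run, while 483 genes in experiment 1 and 115 in experiment 2 had an unadjusted p under 0.05. Of 133 log2 fold changes under alternatives other than leaving out a rat, 120 kept their sign and 13 turned. With the off-gene share as a covariate, the values in experiment 2 turned to -0.019 for Gabra2, -0.16 for Gabra4, -0.25 for Gabrb1, -0.30 for Gabrb2 and -0.17 for Gabrg1. With the first principal component as a covariate they were -0.12 for Gabra4, -0.17 for Gabrb1, -0.26 for Gabrb2 and -0.093 for Gabrg1, and in experiment 1 Gabrg1 was 0.0012. Without the 3 rats with the highest shares, an alternative added after seeing the data, Gabra4, Gabrb1 and Gabrb2 were at -0.15, -0.13 and -0.16. With DESeq2 size factors the difference between experiments for Gabrb1 was 0.00055. Leaving out a rat in turn turned 10 of 154 values, and the ranges were -0.081 to 0.0074 for Gabrg1 in experiment 1, and -0.047 to 0.27 for Gabra4, -0.053 to 0.25 for Gabrb1 and -0.15 to 0.16 for Gabrb2 in experiment 2. The cause of these turns was not tested. Members at an unadjusted p under 0.05 numbered 1 to 4 in experiment 1 when a rat was left out, the 4 without EtOH replicate 2. They numbered 0 there with the first principal component as a covariate or with all 4 groups in one fit. In experiment 2 they numbered 0 to 1, the 1 being Gabrd. Deviations of same-numbered rats from their group means were not shared throughout (r = -0.125 to 0.144 in experiment 1 and -0.759 to 0.835 in experiment 2), and 1 of 5 and 0 of 6 controls correlated best with the treated rat of their own number. A fit with the replicate block called 0 genes in both experiments, and Gabrd in experiment 2 was at -0.52.

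The depth of 2962291 to 8765472 reads on genes and 5 or 6 rats a group leave intervals that reach a 1.53-fold rise or a fall to 0.703 in experiment 1, and a 2.05-fold rise or a fall to 0.520 in experiment 2. A missed threshold therefore does not show that a subunit gene was the same in both groups.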

Other observations

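The ratio of Gabrd to Gabra4 counts, the delta and alpha4 partners, was nearly the same in both groups of experiment 1, at 0.50 ± 0.062 in water and 0.50 ± 0.038 in EtOH rats (SD, n = 5 each). In experiment 2 it was 0.422 ± 0.126 in water gavage and 0.303 ± 0.155 in EtOH gavage rats (SD, n = 6 each), with ranges of 0.271 to 0.562 and 0.0794 to 0.478 that overlapped. The lowest ratio was in EtOH gavage replicate 1, the rat with the highest off-gene share. No test was run on the ratio.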
